A study of Arabidopsis thaliana with 18 samples.

Results

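Prx37, MMP and AT3G47050 are 3 Arabidopsis thaliana genes for enzymes that act, or are thought to act, at the cell wall. Prx37 (AT4G08770) encodes a class III peroxidase, MMP (AT1G70170) a matrix metalloproteinase, and AT3G47050 a glycosyl hydrolase. They were chosen from 13513 probe sets with 1 annotated gene because their signal after salicylic acid (SA) was higher in every replicate number. Each gene was measured by 1 probe set. The labels and files hold nothing on where these proteins go, so their secretion was not examined.

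Class III peroxidases are plant enzymes that use hydrogen peroxide to join or to loosen wall phenolics, and they can also make reactive oxygen at the wall. Plant matrix metalloproteinases are zinc proteases of the cell surface that are made as inactive precursors, and family 3 glycosyl hydrolases take single sugars off wall polysaccharides and other glucosides. SA is the hormone of defence against biotrophic pathogens, a response in which many secreted proteins are made.

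The study labelled total RNA of the accession Tsu-1 with biotin and hybridised it to 18 Affymetrix ATH1 arrays. Of these, 9 arrays came from plants given 0.3 mM SA in 0.02% silwet and 9 from plants given 0.02% silwet, a surfactant, alone. Silwet was thus present in all groups. The titles number the silwet arrays 91 to 99 and the SA arrays 100 to 108, and each run of 3 consecutive arrays carries the replicate numbers 1, 2 and 3. These runs are called triplets here. The first triplet is SA arrays 100 to 102 with silwet arrays 91 to 93, the second SA arrays 103 to 105 with silwet arrays 94 to 96, and the third SA arrays 106 to 108 with silwet arrays 97 to 99. Nothing in the labels says what separates the triplets, and they give no tissue, age or time after treatment. They do not say that arrays came from separate plants either, so the errors and p-values here cover array-to-array spread, some or all of which may be technical.

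All 3 genes were dim. Mean signal over the 18 arrays (geometric mean) was 20.1 for Prx37, 9.72 for MMP and 14.3 for AT3G47050, and the table has no detection calls. The array median ran from 26.01 to 35.9. MMP lay below its array's median on all 9 SA arrays and all 9 silwet arrays. For AT3G47050 this held on 7 SA arrays and 9 silwet arrays, and for Prx37 on 5 SA arrays and 8 silwet arrays. The filter on dim probe sets, which left out the lowest 30% by mean log2 signal, kept all 3 genes. MMP was brighter on average than 30.8% of the probe sets, so it lay just inside that limit, a mean signal of 9.24. Over the 15 arrays outside its highest group, the first SA triplet, MMP had a mean of 8.28, below that limit, so it passed the filter only through those 3 SA arrays. Tests of MMP that involve that triplet are therefore given as values from which no call is read. On the log2 scale such low values scatter widely, and in bulk RNA a lower transcript level per cell and fewer cells of one type cannot be told apart.

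Of 8743 probe sets with 1 gene past the filter, 48 were higher after SA in every replicate number with an unadjusted p under 0.05. That p came from a limma fit of treatment alone, without the triplets. Among the 48, AT3G47050 ranked 2, Prx37 ranked 8 and MMP ranked 10 by mean difference. The mean difference in log2 signal, SA minus silwet over all arrays, was 1.34 for AT3G47050 (SE 0.47), 1.07 for Prx37 (SE 0.41) and 0.88 for MMP (SE 0.29). AT4G19370 came next after MMP with 0.87. These differences chose the genes and are given as a description. In limma 0 of 15922 probe sets passed this comparison, 0%, and none of the 3 genes did. By same-numbered arrays of the same triplet, each gene was higher on the SA array in 7 of 9 pairs.

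The 3 means drew on different triplets, which is given as a description, since these differences chose the genes. Courses were not compared between genes by a test. None of the 3 passed the interaction test of the main fit, given below. MMP and AT3G47050 were higher after SA in the first triplet, and their SA and silwet arrays overlapped in the second and the third. Prx37 stood apart in the second triplet instead.

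**Figure D1:**
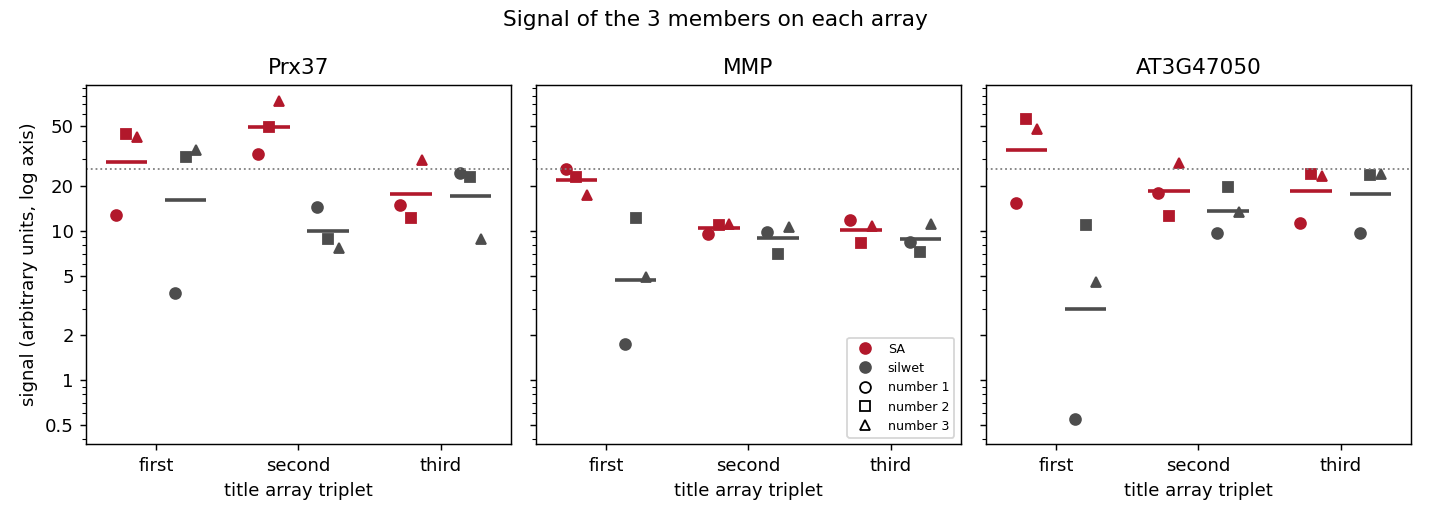
Signal of Prx37, MMP and AT3G47050 on each of the 18 arrays (log axis), with SA left of silwet in each triplet; bars are geometric means of 3 arrays, marker shapes are replicate numbers, and the dotted line is the lowest array median, 26.01. SA points lie clear above silwet points in the first triplet for MMP and AT3G47050 and in the second for Prx37. Of the tested probe sets, 9.25% did so in the first triplet and 4.13% in the second.

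Prx37 has been tied to wall phenolics and to reduced growth when over-expressed. In the first triplet its signal was 12.8, 44.2 and 42.5 on SA arrays 100, 101 and 102, against 3.82, 31 and 34.5 on silwet arrays 91, 92 and 93. The treatments overlapped there, and on both sides the array of replicate number 1 was the low one.

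In the second triplet Prx37 had 32.7, 49.1 and 73.4 on SA arrays 103, 104 and 105, against 14.4, 8.85 and 7.61 on silwet arrays 94, 95 and 96. Every SA array lay above every silwet array, as was true of 4.13% of the probe sets in that triplet. In the third triplet it had 14.9, 12.1 and 29.7 on SA arrays 106, 107 and 108, against 24.3, 22.8 and 8.74 on silwet arrays 97, 98 and 99. Here 2 of the 3 same-numbered pairs were lower after SA. None of the 3 genes had every SA array above every silwet array in the third triplet, where 4.61% of the probe sets did.

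The difference of Prx37 between SA and silwet was 0.85 in the first triplet, 2.31 in the second and 0.05 in the third (model SE 0.71 each). Its mean log2 signal was 4.85 ± 1.02, 5.62 ± 0.58 and 4.13 ± 0.68 on the SA arrays of the 3 triplets and 4 ± 1.79, 3.31 ± 0.48 and 4.08 ± 0.83 on the silwet arrays (SD, n = 3 each). The second SA triplet was the highest of the 6 groups and the second silwet triplet the lowest, while the other 4 lay within 1 log2 unit of each other, inside their spread. Without silwet array 91 the difference in the first triplet was -0.18 and the mean over all arrays was 0.73. Leaving out the same-numbered SA array instead gave 1.44 and 1.27. With all arrays of replicate number 1 left out, these values were 0.41 and 1.23. The second triplet did not contain silwet array 91.

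MMP is the family member also known as At2-MMP. On SA arrays 100, 101 and 102 it had a signal of 25.7, 22.9 and 17.3, against 1.73, 12.1 and 4.88 on silwet arrays 91, 92 and 93. Every SA array of the first triplet lay above every silwet array, which 9.25% of the probe sets did.

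The second triplet gave 9.45, 10.9 and 11 for MMP on the SA arrays, against 9.76, 7 and 10.6 on the silwet arrays. The third gave 11.7, 8.32 and 10.8 on the SA arrays, against 8.4, 7.18 and 11.1 on the silwet arrays. In both of these triplets the treatments overlapped, and the values ran from 7 to 11.7.

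The difference of MMP was 2.21 in the first triplet and 0.22 in both the second and the third (model SE 0.49 each). Its mean log2 signal on SA arrays was 4.44 ± 0.29, 3.38 ± 0.12 and 3.35 ± 0.26 over the 3 triplets, and on silwet arrays 2.23 ± 1.41, 3.17 ± 0.32 and 3.13 ± 0.32 (SD, n = 3 each). The first SA triplet was thus the highest group and the first silwet triplet the lowest, with the other 4 groups within their spread. The first SA triplet was also the tighter side, and the low silwet mean rested in part on array 91. Without that array the difference was 1.49.

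AT3G47050 belongs to a run of related glycosyl hydrolase genes on one chromosome. Its signal on SA arrays 100, 101 and 102 was 15.2, 56.2 and 47.8, against 0.546, 11 and 4.54 on silwet arrays 91, 92 and 93. The SA arrays all lay above the silwet arrays in this triplet, as was true of 9.25% of the probe sets. The value of silwet array 91 was dimmer than all but 4.04% of that array's probe sets.

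In the second triplet AT3G47050 had 17.8, 12.5 and 28.6 on the SA arrays, against 9.63, 19.6 and 13.2 on the silwet arrays. In the third it had 11.3, 24.1 and 23.3 on the SA arrays, against 9.71, 23.5 and 24 on the silwet arrays. The treatments overlapped in both, and in the third the same-numbered arrays 107 and 98 differed by 0.03 log2 units and arrays 108 and 99 by -0.04.

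The difference of AT3G47050 was 3.52 in the first triplet, 0.45 in the second and 0.07 in the third (model SE 0.81 each). Mean log2 signal was 5.11 ± 1.03, 4.21 ± 0.6 and 4.21 ± 0.62 on the SA arrays of the 3 triplets and 1.59 ± 2.22, 3.76 ± 0.52 and 4.14 ± 0.75 on the silwet arrays (SD, n = 3 each). Again the first SA triplet was the highest group and the first silwet triplet the lowest. Without silwet array 91 the difference in the first triplet was 2.29, and with values floored at the 20th percentile of each array it was 2.45.

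**Figure D2:**
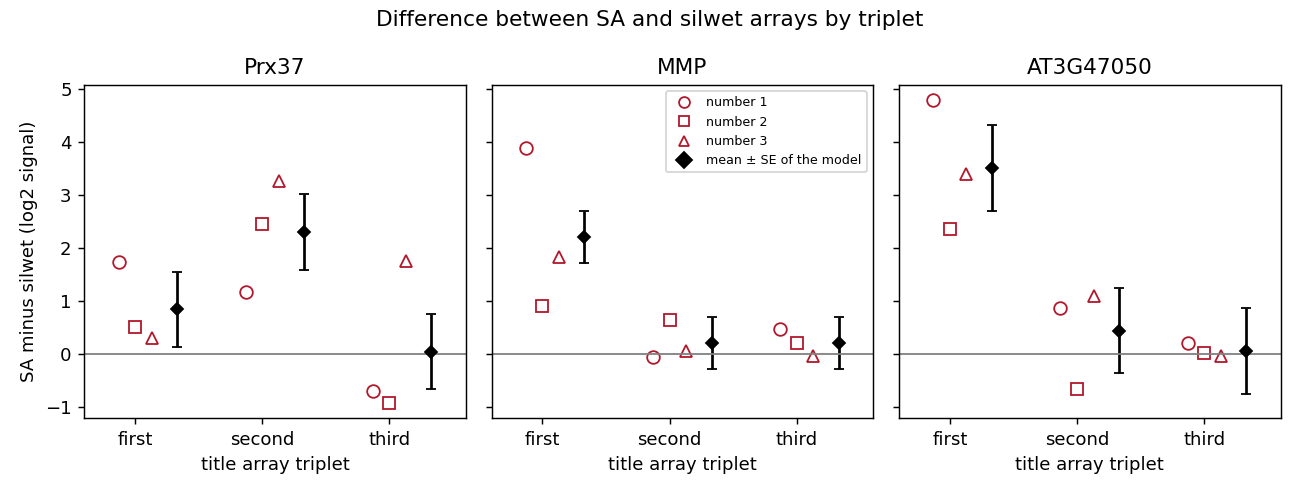
Difference in log2 signal between SA and silwet arrays in each triplet, for same-numbered pairs (open markers) and as the model's mean ± SE (black diamonds). All 3 pairs lie above 0 in the first triplet for every gene, and in the second for Prx37, while pairs of the third triplet fall on both sides of 0.

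Within the first triplet limma called 516 probe sets, 3.24% of those tested, with 1.97% higher after SA and 1.27% lower, and 2 of the 3 genes, MMP and AT3G47050, were among the higher ones. Since the genes were chosen for this difference, nothing is read from that count. In the second and the third triplets 0 probe sets passed, with an unadjusted p under 0.05 for 367 and 1112. Prx37 was therefore not among called probe sets in any triplet.

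Whether the difference itself changed between triplets was tested with an interaction of treatment and triplet, which does not use the mean difference. The p of the treatment-only fit counts such changes as error, so a choice by that p is not independent of the interaction. The F-test passed for 160 of 15922 probe sets, 1%. None of the 3 genes passed in limma, with adjusted p of 0.201 for AT3G47050, 0.206 for MMP and 0.428 for Prx37. With the replicate number as a block, which called 936 probe sets, AT3G47050 had a limma adjusted p of 0.0359, MMP 0.126 and Prx37 0.275. With array weights, which called 5586, the values were 0.0111 for AT3G47050, 0.0436 for MMP and 0.105 for Prx37. Without silwet array 91 they were 0.398, 0.428 and 0.262, in the same order, and none of the 3 passed. No call of MMP is read from the p-values or intervals of this paragraph, since the first SA triplet carried it past the filter. The change of the SA difference from the first to the second triplet was -3.07 for AT3G47050 (95% interval -5.48 to -0.66), -1.99 for MMP (-3.47 to -0.52) and 1.45 for Prx37 (-0.68 to 3.59), each interval unadjusted. Without silwet array 91 these changes were -1.84 for AT3G47050, -1.27 for MMP and 2.49 for Prx37, and without SA array 100 the change of Prx37 was 0.87. From the second to the third triplet the change was -2.26 for Prx37 (unadjusted interval -4.39 to -0.12, limma adjusted p = 0.714). For the first to the second triplet the limma adjusted p was 0.311 for AT3G47050, 0.271 for MMP and 0.711 for Prx37.

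The course over triplets was also tested within each treatment. On SA arrays, MMP differed by -1.05 between the second and the first triplet (SE 0.49, limma adjusted p = 0.152). AT3G47050 differed by -0.9 (SE 0.81, adjusted p = 0.475) and Prx37 by 0.76 (SE 0.71, adjusted p = 0.493). None passed in a comparison that called 3091 probe sets, 19.4%. Without SA array 100 the difference was -1.49 for AT3G47050 (limma adjusted p = 0.232) and 0.18 for Prx37 (0.9), and with all arrays of replicate number 1 left out it was -1.46 for AT3G47050 (0.0476). For MMP the limma adjusted p was 0.0392 with values floored at the 20th percentile and 0.0203 with 16 added to each signal before the log. It was 0.0494 without silwet array 91 and 0.262 without SA array 100. Quantile normalization gave 0.0798, the replicate block 0.135 and array weights 0.22. No call of MMP is read from these values, since the first SA triplet carried it past the filter.

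On silwet arrays the second triplet differed from the first by 2.17 for AT3G47050 (SE 0.81, limma adjusted p = 0.181), 0.94 for MMP (SE 0.49, 0.404) and -0.69 for Prx37 (SE 0.71, 0.741). This comparison called 572 probe sets, 3.59%, with 0.81% higher and 2.78% lower in the second triplet. AT3G47050 passed it with the replicate block (limma adjusted p = 0.035), with array weights (0.0166) and without silwet array 92 (difference 3.11, 0.0395). Without silwet array 91 the difference was 0.94 for AT3G47050 (limma adjusted p = 0.583), 0.22 for MMP (0.893) and -1.72 for Prx37 (0.163). Without silwet array 92 it was 1.63 for MMP (0.0455) and -0.21 for Prx37 (0.934), and without silwet array 93 it was -0.14 for Prx37 (0.996). From the second to the third triplet limma called 0 probe sets in either treatment, with 587 on SA arrays and 2169 on silwet arrays at an unadjusted p under 0.05. The 3 genes differed by -1.49 to 0 there on SA arrays and by -0.04 to 0.77 on silwet arrays.

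Array 91 was the lowest array for all 3 genes. Its control probe sets gave a log2 ratio of the 3' over the 5' end of actin of 3.42, and SA array 100, the same-numbered one, gave 3.19. On the other 16 arrays it was 1.5 to 2.38. Array 100 also had the lowest mean correlation with the other arrays, 0.852. Both arrays stand in the first triplet on opposite sides of the comparison. Without array 91 the first-triplet difference was 2.29 for AT3G47050, 1.49 for MMP and -0.18 for Prx37. Without array 100 it was 4.11, 2.09 and 1.44, in the same order. Whether the end ratios bear on the result was not tested. With all arrays of replicate number 1 left out, the first-triplet difference was 2.88 for AT3G47050, 1.37 for MMP and 0.41 for Prx37. The second-triplet difference of Prx37 was then 2.87.

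Leaf markers were bright on all arrays. The mean log2 signal of 4 measured genes (RCA, LHCB4.1, LHCB4.2 and PSAE-1) was 10.76 to 11.51 in the first SA triplet and 11.35 to 11.69 in the first silwet triplet, with array 100 the lowest. In the second triplet it was 11.35 to 11.54 on SA arrays and 11.22 to 11.64 on silwet arrays. The root marker PYK10, a beta-glucosidase, had signals of 109 to 493 on the 18 arrays and did not pass in any triplet. The other 3 measured root markers, all peroxidases, had mean signals of 1.16 to 3.83. FMA, a guard cell factor, differed by -0.18 in the first triplet (SE 0.24, limma adjusted p = 0.77), and no flower marker was found among the named probe sets.

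Neighbouring genes of the same families were examined next. AT4G08780 is the next protein-coding gene after Prx37 and encodes a closely related peroxidase. It had 12.4, 27.9 and 13.3 on the SA arrays of the first triplet, against 16.9, 24.6 and 19.7 on the silwet arrays. In the second triplet it had 28.7, 37.9 and 42.8 on the SA arrays, against 10.5, 8.77 and 15.8 on the silwet arrays. As for Prx37, every second-triplet SA array lay above every silwet array, which 4.13% of the probe sets did.

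The difference of AT4G08780 was -0.28 in the first triplet, 1.66 in the second (SE 0.36, limma adjusted p = 0.949) and -0.05 in the third. The interaction gave an adjusted p of 0.104, 0.0481 with the replicate block, and 0.0647 to 0.228 with single arrays left out. Within SA arrays it was 1.11 higher in the second triplet than in the first (adjusted p = 0.041), a call lost with quantile normalization (0.0775) and on leaving out any of 6 single arrays (highest adjusted p 0.14). Over the 18 arrays its log2 signal correlated with that of Prx37 at 0.703 (Spearman 0.725). The 2 genes are close copies and the probe sequences were not used here, so signal shared through cross-hybridisation was not tested.

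Among relatives of AT3G47050 on the same stretch, AT3G47010 had 39.9, 112 and 68.2 on the SA arrays of the first triplet, against 14.4, 21.9 and 28.4 on the silwet arrays. All SA arrays lay above all silwet arrays, as for 9.25% of the probe sets in that triplet. The difference was 1.70 (limma adjusted p = 0.0574), and it passed with the replicate block (0.0147) and on leaving out SA array 100 or silwet arrays 97 or 98 (lowest adjusted p 0.022). In the second triplet the difference was -0.60 and in the third 0.04. On SA arrays its log2 difference between the second and the first triplet was -1.40 (adjusted p = 0.0456), and 10 of 18 single arrays left out ended that call. AT3G47000 differed by -0.05 in the first triplet and AT3G47040 was too dim for the test, with a mean signal of 4.29. The correlation of AT3G47050 over the 18 arrays was 0.641 with AT3G47010 and 0.317 with AT3G47000.

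**Figure D3:**
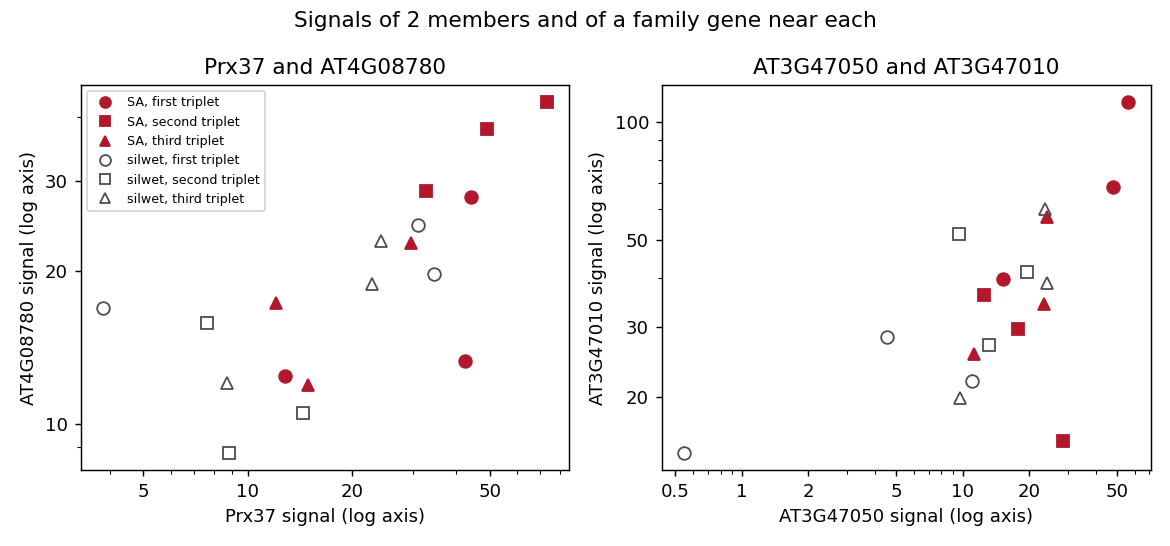
Signal of Prx37 against AT4G08780 (left) and of AT3G47050 against AT3G47010 (right) on the 18 arrays, on log axes; filled red markers are SA arrays, open grey markers silwet arrays, and shapes are triplets. Second-triplet SA arrays sit at the upper right for the peroxidases, and SA arrays 101 and 102 of the first triplet for the hydrolases.

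The wider families were described from lists of their genes. Of 73 class III peroxidases 55 had a named probe set, and 22 passed the filter on dim values. For the 21 other than Prx37 the median difference after SA was -0.34 in the first triplet, where the median of all probe sets was -0.10, and 0.22 in the second, where it was -0.03. No peroxidase passed in any triplet. With the replicate block AT5G40150, which differed by -0.93 in the first triplet, was called lower there, when 4.46% of all probe sets were.

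Some peroxidases differed between triplets on SA arrays, where 6 of the 21 were called higher in the second triplet than in the first and 0 lower, against 10.6% and 8.8% of all probe sets. These were AT2G37130 (2.01), AT5G40150 (1.63), PRX52 (1.42), PRXR1 (1.28), AT4G08780 (1.11) and AT1G71695 (0.78). PRX52 is known for a role in lignin formation. On silwet arrays 1 of the 21 was called higher, against 0.81% of all probe sets, namely AT1G71695 with 0.93 (limma adjusted p = 0.0112). Leaving out 1 array ended the calls of PRX52 and AT1G71695 in some cases, with a highest adjusted p of 0.119 and 0.0521 on SA arrays and 0.072 for AT1G71695 on silwet arrays. With quantile normalization PRX52 (limma adjusted p = 0.0639) and AT4G08780 (0.0775) were not called on SA arrays.

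All 5 matrix metalloproteinases had a probe set, and 3 passed the filter. AT1G24140 had 152, 235 and 364 on the SA arrays of the first triplet, against a median of 173 on the silwet arrays, and 45.5 to 74.6 on all arrays of the other triplets. The second triplet was lower than the first in both treatments, with a log2 difference of -2 on SA arrays (limma adjusted p = 0.000171) and -1.93 on silwet arrays (adjusted p = 0.00112). The SA difference in the first triplet was 0.19 (adjusted p = 0.802). AT1G59970 had 32.4 to 67.6 on the 18 arrays and a first-triplet difference of -0.05. AT4G16640 and AT2G45040 did not pass the filter, with mean signals of 6.35 and 3.27.

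Of 15 family 3 glycosyl hydrolases 10 were measured and 7 passed the filter. For the 6 other than AT3G47050 the median first-triplet difference was -0.09, and 0 passed. AT1G78060, of the beta-xylosidase branch, differed by -1.42 (limma adjusted p = 0.0538) and passed with the replicate block (0.0215). On SA arrays it was 2.26 higher in the second triplet than in the first (adjusted p = 0.000657). AT3G19620 differed by -1.45 (adjusted p = 0.36). AT3G47010 and AT1G78060 thus had first-triplet differences of opposite sign.

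Chitinases and beta-1,3-glucanases, wall-degrading enzymes of defence, were listed as a further secreted group. Of 26 genes 16 were measured and 11 passed the filter. One of them rose after SA in the first triplet, which is 1 of 11 against 1.97% of all probe sets, and 0 fell. The gene was the chitinase AT3G47540, with 971, 764 and 1240 on the SA arrays, against 276, 241 and 430 on the silwet arrays, a difference of 1.67 (limma adjusted p = 0.0044). AT1G02360, another chitinase, had 1.71 (adjusted p = 0.0583) and passed with the replicate block (0.00202). Leaving out single arrays gave it a call in only 3 of 18 cases, with a highest adjusted p of 0.268. On SA arrays 5 of the 11 were called lower in the second triplet than in the first, against 8.8% of all probe sets, and 1 higher, against 10.6%. Among the lower ones were AT1G02360 (-2.78), AT2G43620 (-1.93), AT3G47540 (-1.74) and ChiC (-1.27). On silwet arrays 4 of the 11 were called lower, against 2.78% of all probe sets, among them AT2G43620 (-2.03) and ChiC (-1.59), and 0 higher. Respiratory burst oxidases make the superoxide that yields hydrogen peroxide at the wall. Of 9 listed, only 3 were measured and none of these passed the filter, with mean signals of 0.604 to 5.26. The other listed oxidases were not examined.

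**Figure D4:**
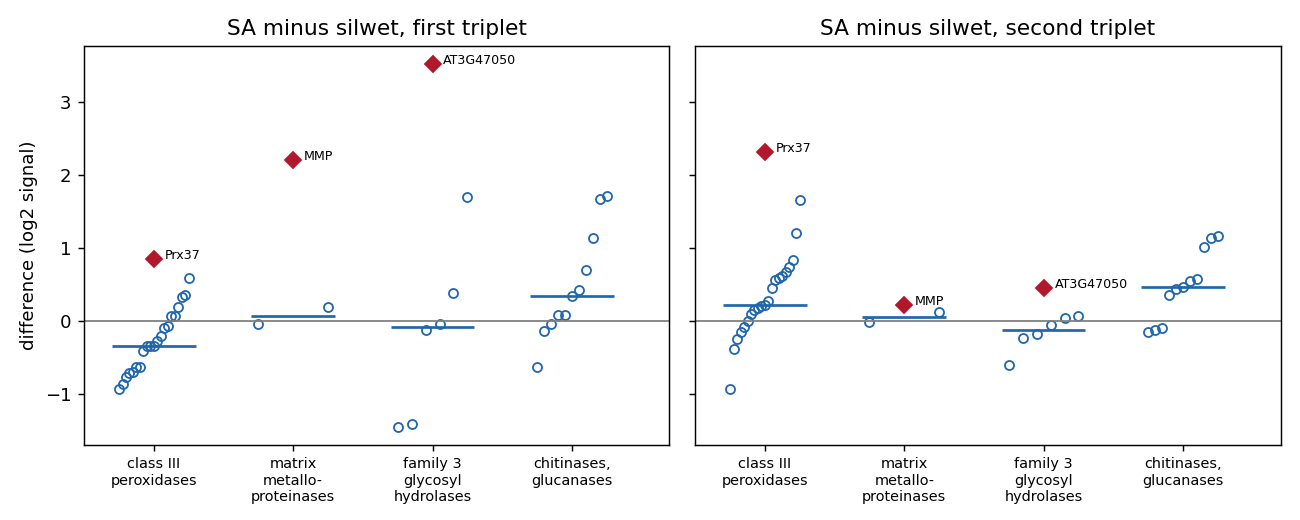
Difference in log2 signal between SA and silwet arrays in the first (left) and second (right) triplet for genes past the filter in 4 families; red diamonds are the 3 chosen genes, open circles the other genes, and bars their medians. Prx37, MMP and AT3G47050 are each the top gene of their family in the triplet where they were highest, as their choice favours.

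The probe sets with 1 gene that followed each gene most closely were found among 8743 by Pearson correlation of log2 signal over the 18 arrays. For Prx37 they were AT2G40780 (0.748), AT4G08780 (0.703), AT5G49800 (0.656) and AT5G42680 (0.642). For MMP they were AT3G47050 (0.806), AT3G28510 (0.78), AT4G19370 (0.757) and AT4G00170 (0.752). For AT3G47050 they were AT3G26440 (0.832), AT3G28510 (0.827), MMP (0.806) and AT5G09290 (0.78). MMP and AT3G47050 stood on each other's list, and both lists held AT3G28510, an AAA-type ATPase. It differed by 6.05 in the first triplet, 0.79 in the second and 2.26 in the third. AT3G28510, AT4G19370, MMP and AT3G47050 were all among the 48 probe sets higher after SA in every replicate number, which favours such correlations.

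The correlations were also taken without silwet array 91. Without silwet array 91 the value for MMP and AT3G47050 was 0.535, and the Spearman correlation over all 18 arrays was 0.414. Prx37 correlated with MMP at 0.462 and with AT3G47050 at 0.524, and without array 91 at 0.123 and 0.191. For Prx37 and AT4G08780 the value without array 91 was 0.8. The arrays share treatments and triplets, so these values describe the pattern only.

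**Figure D5:**
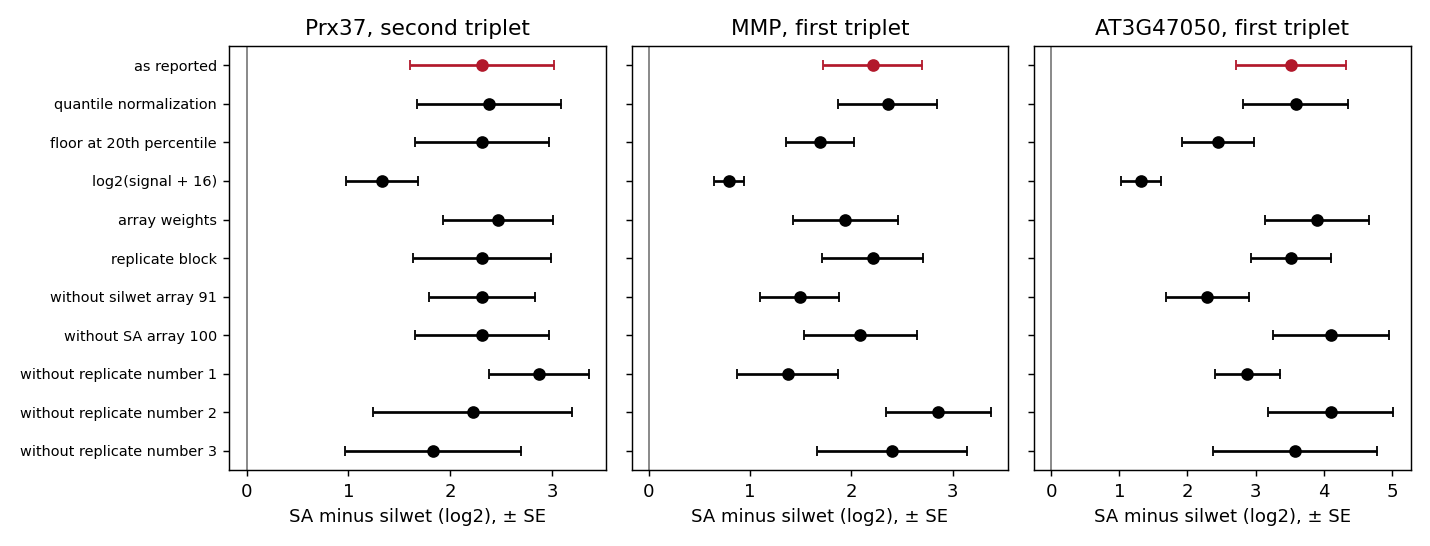
Difference in log2 signal between SA and silwet arrays, ± the model's SE, for Prx37 in the second triplet and for MMP and AT3G47050 in the first, under the settings named at the left. Every value lies above 0, as the choice of genes and triplets favours, with the smallest after 16 was added to each signal before the log.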

How the data were processed

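The intensity values that the authors deposited stand in a single table of linear signals for 22810 probe sets on 18 arrays. Per the submitters' processing notes they came from MAS5, of a version not given in the sources used here. Trimming 2% at both ends gave a mean of 100.01 on each array, and no further scaling was done. No 2 arrays were identical among 153 pairs. Precision is limited by the number of arrays.

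Probe sets were named through the platform annotation and the RefSeq table of assembly TAIR10.1. A single gene was given for 13513, several genes for 503, and 8730 were unnamed here. The remaining 64 were controls. No sequence or coordinate was used.

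After log2, controls and the dimmest 30% by mean were dropped, which left 15922 probe sets. Limma 3.58.1 in R 4.3.3 fitted 1 mean for each of 6 groups (eBayes with trend). P-values were adjusted by Benjamini-Hochberg across the 15922, with calls under 0.05. Members and gene lists were chosen with earlier results of these data known. The text names the 3 genes, the 4 probe sets most correlated with each, family neighbours, other matrix metalloproteinases and up to 4 genes per list by interaction p. AT2G37130 and AT1G71695 fall outside this rule and were named after their values were seen. The fit was tested on simulated data. Alternatives changed the normalization, floor, filter, weights, trend, replicate block and arrays included.

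Same-numbered SA and silwet arrays of a triplet deviated together from their group means, with correlations of 0.216 to 0.481 for all 9 pairs against -0.377 to 0.113 for differently numbered ones. Deviations from a group mean cancel out, so the low values of differently numbered pairs follow in part from the others. From the positive values of all 9 same-numbered pairs, the numbers were taken to pair the arrays within a triplet. The alternative called the replicate block fitted an effect of each replicate number that all triplets shared. A fit of the 9 separate pairs was not run, and the main fit left the pairing out.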

Additional observations from a re-analysis of the deposited data

Results flagged for a closer look

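The treatment difference of the chitinase AT3G47540 differed between the triplets by a test of that difference, the interaction F-test in limma (adjusted p = 0.0471). It was 1.67 in the first triplet, 0.57 in the second and -0.26 in the third. Leaving out single arrays gave adjusted p of 0.0296 to 0.149, and 14 of the 18 ended the call. With the replicate block it was 0.00285.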

How the results depend on the processing

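The first-triplet differences of MMP and AT3G47050 and the second-triplet difference of Prx37 stayed above 0 under every alternative run. They were smallest (0.79, 1.32 and 1.33) after 16 was added to each signal. The genes were chosen for higher signal after SA, and each value is the largest of that gene's 3 triplets. Nothing is therefore read from these values staying above 0. With the lowest 50% of probe sets left out, none of the 3 genes was tested. Counts of called probe sets moved more. With the replicate block they were 20 over all triplets, 1402 in the first triplet, 936 for the interaction, 2 for the third minus the second triplet in SA, 1191 for the second minus the first in silwet and 11 for the third minus the second in silwet; with the block and a floor, chosen after seeing the data, 21, 1420, 986, 2, 1227 and 64. Array weights, which ran from 0.133 for array 100 to 5.12 for array 95, gave 257 over all triplets, 2045, 19 and 5380 in the first, the second and the third, 5586 for the interaction, 5212 and 21 for the SA contrasts and 2387 and 6650 for the silwet contrasts. Over all triplets the floor and the added 16 gave 4 each. For the third minus the second triplet in silwet, quantile normalization, the floor and the stricter filter gave 1 each and no filter 2. Leaving out replicate numbers or single arrays gave 0 to 2 over all triplets, 3 to 869 in the first (96 without silwet array 91, 869 without SA array 100), 0 to 3 in the second, 0 to 1 in the third, 0 to 683 for the interaction, 785 to 3744 and 0 to 2 for the SA contrasts, and 92 to 832 and 0 to 723 for the silwet contrasts. Among differences between triplets, signs turned where values were small: for the third minus the second triplet in SA, MMP had 0.02 with quantile normalization and -0.21 to 0.14 over the leave-outs, and AT3G47050 had 0.05 with quantile normalization, 0 with 16 added, 0.24 with array weights and -0.48 to 0.35 over the leave-outs. In silwet MMP had 0.13 with quantile normalization, 0.43 with array weights and -0.22 to 0.10 over the leave-outs. For the second minus the first triplet, Prx37 in silwet had -1.99 to 0.05 over the leave-outs, and AT1G59970 in SA had 0.25 with array weights and -0.30 to 0.30 over the leave-outs. The cause was not tested. Dim signals and 3 arrays a group limit what could be detected.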
